A study of Mus musculus with 2 samples.

Results

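The subject here is the stretch of mouse chromosome 11 that holds the neighbouring genes Stat5b, Stat5a and Stat3, and the binding of REV-ERBα within it in T helper 17 (Th17) cells. Its members are the peaks of the authors' REV-ERBα list (genome build mm9) whose midpoint lies in chr11:100620000-100830000, a window of 210 kb. There are 8 such peaks of 8884 in the whole list and of 697 on chromosome 11. The list comes from chromatin immunoprecipitation followed by sequencing (ChIP-seq) of wild-type Th17 cells in primary culture. The series has 1 ChIP sample, made with an antibody to REV-ERBα, and 1 input sample, DNA of the same kind of cells sequenced without precipitation, which enters only through the input value listed for each peak. With 1 ChIP sample no value below has a replicate behind it, and no interval covers more than counting error. The list has no expression values, so the cell type could not be checked against markers.

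STAT proteins are transcription factors that wait in the cytoplasm, are phosphorylated by Janus kinases when a cytokine binds its receptor, and then enter the nucleus as dimers. STAT3 carries the signals of interleukin-6, interleukin-21 and interleukin-23 and is needed for Th17 cells to form, since it drives the genes for RORγt and interleukin-17. STAT5A and STAT5B are close relatives that carry the signals of interleukin-2 and interleukin-7, and STAT5 restrains Th17 differentiation, in part by competing with STAT3 at the interleukin-17 locus. REV-ERBα, a clock protein of the nuclear receptor family, represses genes by recruiting the NCoR corepressor and a histone deacetylase. It binds the half-site AGGTCA with an A/T-rich 5′ flank, an element that it shares with RORγt.

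In the GRCm38.p6 gene table of RefSeq the order of the protein-coding genes with rising coordinates is Kcnh4, Hcrt, Ghdc, Stat5b, Stat5a, Stat3, Cavin1, Atp6v0a1 and Naglu. No other protein-coding gene is listed between the 3 STAT genes. Of the neighbours, Kcnh4 encodes a potassium channel, Hcrt the precursor of the orexin neuropeptides, Cavin1 a coat protein of caveolae, Atp6v0a1 a subunit of the proton pump of acidic organelles and Naglu a lysosomal enzyme. That assembly is not the build of the peaks, so its coordinates were not set beside them. The peaks are therefore described by position within the window, and none is assigned to a promoter, intron or intergenic stretch of a named gene.

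The sequence of the peaks themselves was not used here. RefSeq does give the sequence around transcription start sites (GRCm38.p6, 250 bases before to 50 after each start), with 2 start windows for Stat5a, 2 for Stat5b and 1 for Stat3. These were searched on both strands for AGGTCA and for the longer TAGGTCA, which contains it. AGGTCA was present in 3 of the 5 windows, and in 16.3% of all 32851 start windows of the table. TAGGTCA was present in 1 of the 5, and in 2.61% of all. The stretches that hold a match are printed below because this half-site is the core of the element that REV-ERBα reads. They run 5′ to 3′ on the strand of the gene, with the match in capitals, and TGACCT is AGGTCA read on the other strand.
Stat5a, first start window, plus strand, GRCm38.p6 chr11:100859580-100859644: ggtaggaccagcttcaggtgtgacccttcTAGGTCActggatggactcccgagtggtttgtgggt
Stat5a, second start window, plus strand, GRCm38.p6 chr11:100860411-100860474: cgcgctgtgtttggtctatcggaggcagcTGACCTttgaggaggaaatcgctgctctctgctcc
Stat5b, first start window, minus strand, GRCm38.p6 chr11:100822571-100822634: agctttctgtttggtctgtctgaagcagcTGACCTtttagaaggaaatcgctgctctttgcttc

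The match in the first Stat5a window begins 47 bases before the start site and is the one that extends to TAGGTCA. The matches in the second Stat5a window and the first Stat5b window begin 44 and 35 bases before their starts. Lined up on the match, these stretches of Stat5a and Stat5b share 53 of 64 bases (82.8%), so they are not independent occurrences of the half-site. The Stat3 start window and the other Stat5b start window, numbered by rising coordinate, contain neither string, which says only that these letters are not in those 300 bases. A match is a string of letters and not a measured site, and whether any of the 8 peaks lies over one of these windows was not tested.

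REV-ERBα peaks were spread over 181 kb of the window, with stretches between them that held no listed peak. The peaks are numbered 1 to 8 by rising coordinate. They fall into a loose pair at the low end (peaks 1 and 2), a tight pair near the middle (peaks 3 and 4) and a chain of 4 at the high end (peaks 5 to 8). In the gene order above, the low end is the side of Stat5b and the high end the side of Stat3. Together the 8 peaks held 163 ChIP tags, 0.101% of the 161147 tags in all peaks. The chain of 4 held 88 of them (54.0%), the tight pair 46 (28.2%) and the loose pair 29. A tag is one aligned sequencing read, and the whole ChIP library had 6390234.

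**Figure D1:**
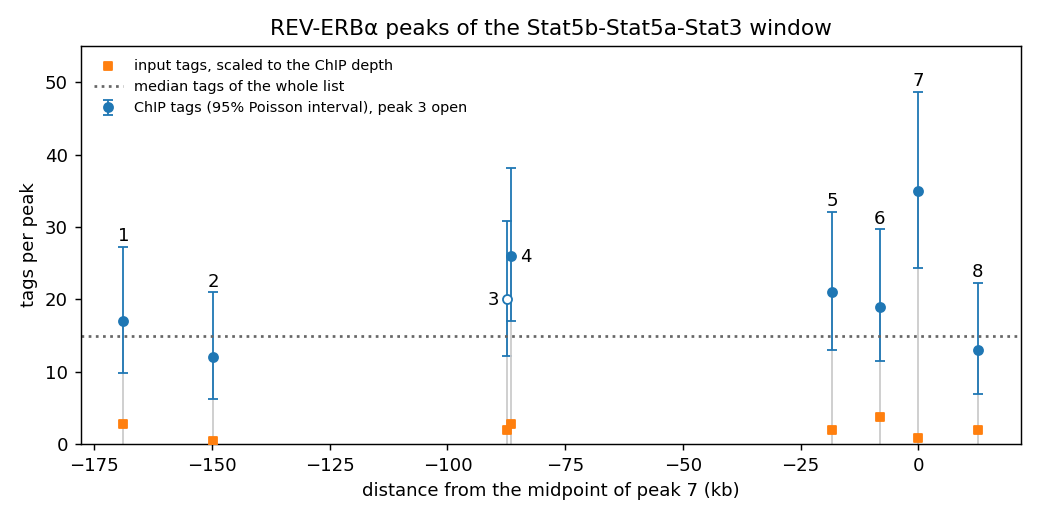
Total ChIP tags of the 8 peaks (circles, with exact Poisson 95% intervals; peak 3 is the open circle) and input tags scaled to the ChIP depth (squares) against the distance from the midpoint of peak 7 in kb. ChIP tags run from 12 at peak 2 to 35 at peak 7, and scaled input lies between 0.5 and 3.8 throughout; the dotted line is the list median of 15 tags.

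Peak 7, at chr11:100800921-100801227, was the strongest of the window. It had 35 ChIP tags (95% Poisson interval 24.4 to 48.7), or 54.8 in the authors' normalization to 10000000 tags, and a caller score of 29. The score is the caller's own measure of peak height in tags. Scaled input was 0.9, which corresponds to a single input tag, and the listed fold over input was 37.0. Because it rests on 1 input tag, the exact binomial 95% interval of that fold runs from 6.22 to 1504. Enrichment over the surrounding 10000 bp was also the highest of the 8, at 10.9-fold. The same number of tags or more was found in 270 peaks of the list (3.04%), of which 23 lie on chromosome 11. Peak 7 is thus among the stronger peaks of the list, and it is not among the few at the top.

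Peaks 5 and 6 lie below peak 7 and peak 8 above it. Peak 5, at chr11:100782587-100782893, had 21 tags (13.0 to 32.1), a score of 18 and 1.9 scaled input tags. Its fold over input was 11.1 (95% interval 2.72 to 97.7). Peak 6, at chr11:100792736-100793042, had 19 tags (11.4 to 29.7) and a score of 17. It also had the highest input of the window, 3.8 scaled tags, and with it the lowest fold, 5.03 (1.67 to 20.3), not far above the authors' minimum of 4. Peak 8, at chr11:100813551-100813857, had 13 tags (6.92 to 22.2), a score of 13, 1.9 scaled input tags and a fold of 6.88 (1.56 to 62.8). Peak 7 had the highest count of the chain, with 1.84 times the tags of peak 6 (95% interval 1.03 to 3.41) and 2.69 times those of peak 8 (1.39 to 5.55). Widened for all 28 pairs of window peaks, both intervals include 1, with lower limits of 0.747 and 0.987.

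The tight pair consists of peak 3 at chr11:100713635-100713941 and peak 4 at chr11:100714497-100714803. Peak 3 had 20 tags (12.2 to 30.9), a score of 18 and 1.9 scaled input tags, which gives a fold of 10.6 (95% interval 2.57 to 93.4). Peak 4 had 26 tags (17.0 to 38.1), the second highest number in the window, with a score of 25 and 2.8 scaled input tags. Its fold was 9.17 (2.81 to 47.3). The tag counts of the pair differed by less than counting error, with a ratio of 1.30 (0.698 to 2.46). Their midpoints are 862 bp apart, and 556 bp separate the end of one from the start of the other. The caller allowed no peaks closer than 612 bp, so these are listed as separate maxima, but whether they are separate binding sites was not tested.

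Peaks 1 and 2 form the low end. Peak 1, at chr11:100632121-100632427, had 17 tags (9.90 to 27.2), a score of 13, 2.8 scaled input tags and a fold of 5.99 (95% interval 1.73 to 31.9). Over its local region it was enriched 10.4-fold, second to peak 7. Peak 2, at chr11:100651214-100651520, was the weakest of the 8, with 12 tags (6.20 to 21.0) and a score of 9, the lowest in the list. Its input is listed at 0.5, the lowest value in the list, and was taken to mean that no input tag was counted. The listed fold of 25.4 is set by that value. Against a floor of 3 input tags the enrichment would be 4.23-fold. That figure takes the 12 ChIP tags as exact, so it leaves out their counting error and is not a limit like the intervals of the other peaks. The apparent rank of peak 2 as the second most enriched peak of the window does not rest on a measured ratio.

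**Figure D2:**
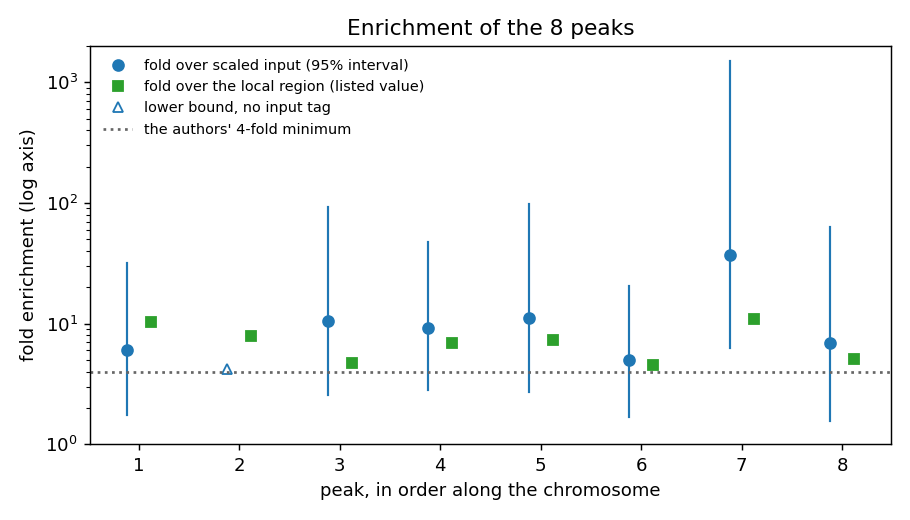
Fold over scaled input (circles, with exact binomial 95% intervals), its lower bound for peak 2, which had no input tag (triangle), and the listed fold over the surrounding 10000 bp (squares) for each of the 8 peaks in chromosomal order, on a log axis. The triangle leaves out the counting error of the ChIP tags, so it cannot be read against the dotted line as the intervals can. The intervals over input of all 7 peaks that have one overlap; that of peak 7 is the only one to lie wholly above the authors' minimum of 4 (dotted line).

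Differences in strength among the 8 peaks were mostly within counting error. Of the 28 pairs of peaks, 5 had a tag ratio whose 95% interval lay above 1: peak 7 over peaks 1, 2, 6 and 8, and peak 4 over peak 2. When the intervals were widened for 28 comparisons, 1 remained, peak 7 over peak 2 (ratio 2.92, with an unwidened interval of 1.48 to 6.17). Its widened lower limit was 1.04, only just above 1. Beyond that pair the order of the 8 peaks is not resolved at this depth.

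The window peaks were read against the list as a whole. Their median was 19.5 tags, with a range of 12 to 35, where the list median was 15, with quartiles of 12 and 20, and the median on chromosome 11 was also 15. At or above the list median were 6 of the 8, against 51.3% of all peaks. Median scores were 17.5 in the window and 13 in the list. Enrichment over input did not stand out. At least 8-fold enrichment was listed for 5 of the 8 peaks, near the 61.5% of the whole list, and at least 16-fold for 2, against 28.1%, with peak 2 one of these. The median fold was 9.88 in the window, 10.6 in the list and 9.52 on chromosome 11. Scaled input had the same median of 1.9 in all 3. One of the 8 had no input tag, against 16.8% of the list.

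**Figure D3:**
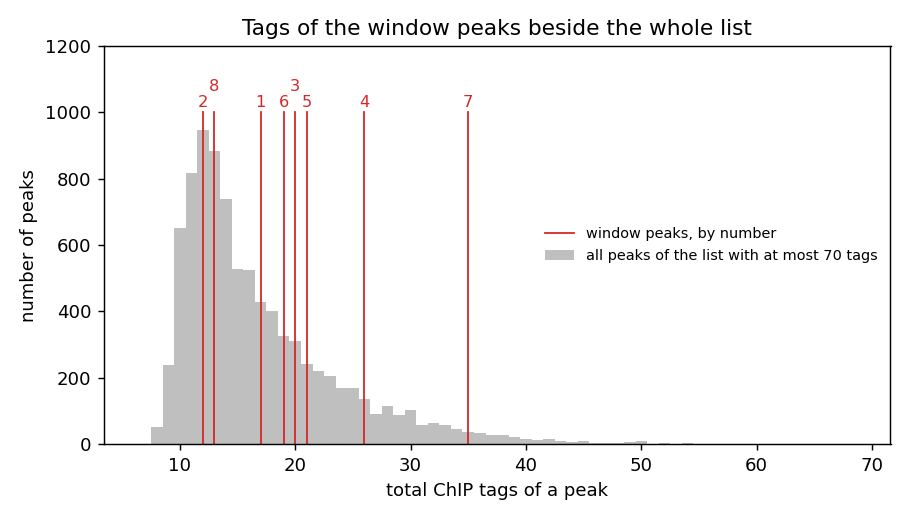
Number of listed peaks (grey bars) by total ChIP tags, for the peaks of at most 70 tags, with the 8 window peaks as numbered red lines. Peaks 2 and 8 lie below the list median of 15 tags, peaks 1, 3, 5 and 6 between 17 and 21, and peaks 4 and 7 in the upper tail at 26 and 35.

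Enrichment over the local region had a median of 7.12-fold in the window, 7.78-fold in the list and 7.10-fold on chromosome 11, so that the window's median was close to that of its chromosome. In the window, 2 of the 8 peaks reached 8-fold, against 47.5% of the list. Dividing the tags of a peak by this fold gives the level of its surroundings, in tags per peak width. That level was 4.23 at peak 3, 3.76 at peak 4, 2.87 at peak 5, 4.19 at peak 6, 3.22 at peak 7 and 2.56 at peak 8, and thus above the medians of the list, 1.93, and of chromosome 11, 2.11, for all 6 of these peaks. At peaks 1 and 2 it was 1.64 and 1.52, below both medians. Peaks 3 and 4 are 862 bp apart. The nearest listed peak to peak 6 is 8.19 kb away and that to peak 8 is 12.6 kb away. The part of unlisted signal, neighbouring peaks or background in these levels was not tested.

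Spacing within the window was uneven. From midpoint to midpoint the 7 successive distances were 19.1 kb, 62.4 kb, 862 bp, 68.1 kb, 10.1 kb, 8.19 kb and 12.6 kb. Their median of 12.6 kb compares with 50.8 kb over the 8864 gaps of the list and 48.6 kb on chromosome 11. The window gaps are bounded by its 210 kb and leave out the distances to peaks outside. A shorter median thus largely follows from the count of 8 and is not a separate result. The gap inside the tight pair belongs to the shortest of the list, since 76 gaps (0.857%) were as short or shorter, and 1.39% of all gaps were under 1000 bp. The chain of peaks 5 to 8 covered 31.0 kb. A neighbour within 10 kb was present for 4 of the 8 peaks (peaks 3, 4, 6 and 7), or 50% (exact 95% interval 15.7 to 84.3), against 33.7% of the list. Peaks 3 and 4 are each other's neighbour, as are peaks 6 and 7. The interval treats the 8 peaks as separate observations, which they are not, so it does not measure the error of the share. This share turns on single peaks: it was 28.6%, below that of the list, both without peak 7 and with peaks closer than 1 kb counted once, and 25% at a distance of 5 kb, where the list had 18.5%. Within 20 kb every one of the 8 had a neighbour, against 49.7% of the list.

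Between these groups the list has 2 stretches without a peak, of 62.4 kb from peak 2 to peak 3 and of 68.1 kb from peak 4 to peak 5. Both exceed the median gap of the list but are ordinary in length, since 54.2% and 56.1% of its gaps were as short or shorter. The caller's threshold of 9 tags applies to the score: no listed peak scores below 9, while 55 peaks of the list have fewer than 9 total tags. A site that scored lower, or that failed the filters over input or the local region, would not be listed, so these stretches are not shown to be unbound. Outside the window, the next peak below was at chr11:100582597-100582903, 49.5 kb from peak 1, with 10 tags. The next above was at chr11:100869542-100869848, 56.0 kb from peak 8, with 23 tags. They lie 37.2 kb and 39.7 kb beyond the bounds of the window, so that moving either bound outward by less than this would leave the count at 8.

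The window was among the more densely occupied parts of the genome. Its 8 peaks (95% Poisson interval 3.45 to 15.8) amount to 38.1 per Mb, where the list averaged 3.50 per Mb and chromosome 11 averaged 5.87. At these averages 210 kb would hold 0.735 and 1.23 peaks. The ratio to the list average was 10.9 (4.70 to 21.5), and to chromosome 11 it was 6.49. Peaks gather in a minority of regions, however, and the average is a poor measure of a typical place with peaks. For the same reason the intervals of the count and of the ratio, which treat peaks as independent, do not measure their error. When all chromosomes were divided into 12114 consecutive windows of 210 kb, 70.2% were empty, 95 (0.784%) had at least 8 peaks and the fullest had 15. On chromosome 11, 12 of 566 such windows (2.12%) had at least 8, and the fullest had 9. With overlapping windows of 210 kb moved along chromosome 11 in steps of 10 kb, 171 of 11871 (1.44%) had at least 8. The fullest of these had 12. The STAT window was chosen with the peak list known and its bounds were laid around these genes, so its place in this order is a description.

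**Figure D4:**
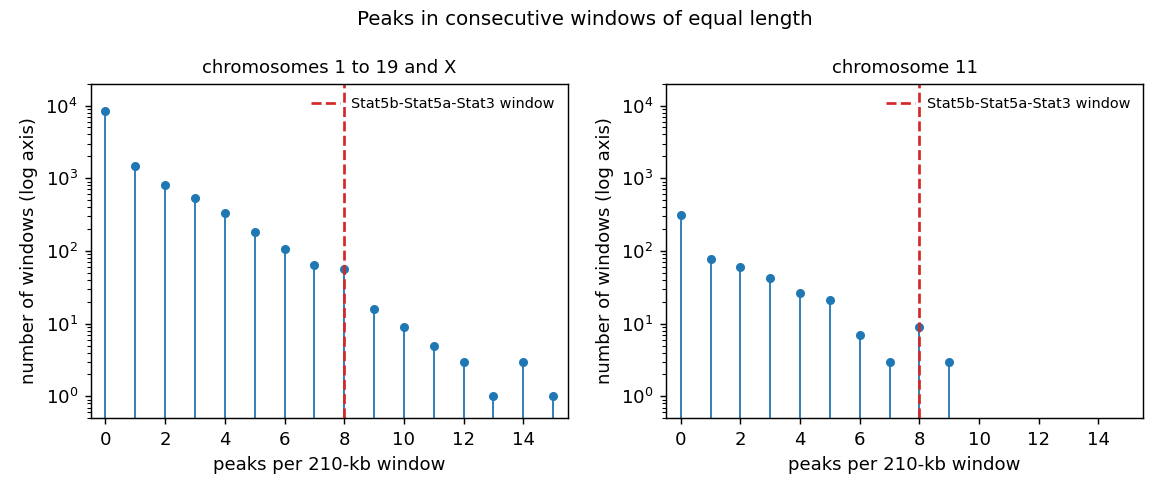
Number of consecutive 210-kb windows (log axis) by the peaks they hold, over chromosomes 1 to 19 and X on the left and on chromosome 11 on the right; the dashed line marks the 8 peaks of the Stat5b-Stat5a-Stat3 window. Windows with 8 or more are 95 of 12114 on the left and 12 of 566 on the right.

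Seen from the single peak, the crowding was less unusual. Within 105 kb on either side, peaks 3 to 8 each had 7 other peaks and peaks 1 and 2 each had 4. The median over the list was 2. At least 7 others were found around 10.8% of all listed peaks, and at least 4 around 34.7%. More than 4 others were present for 6 of the 8 window peaks, against 24.4% of the list. These 6 peaks lie near each other and are counted among each other's neighbours. They are therefore not separate observations, and their number largely restates the window count.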

How the data were processed

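One processed file was used, the peak list of the ChIP sample. Per the submitters' processing notes, the tools were CASAVA 1.8.2, Bowtie and HOMER, with build mm9; the sources used here give no other version. Peaks were called with HOMER findPeaks against input, per the file headers: peak size 306 bp, false discovery rate 0.001 (9 tags), then filters of 4-fold and Poisson p 1.00e-04 against input and against the surrounding 10000 bp, with at most 1 tag per bp considered. Total tags are raw counts, as deposited. Normalized tags are a signal per 10000000 library tags, and input tags are likewise a signal, which the authors brought to the depth of the ChIP library. Folds are linear ratios, p-values are Poisson values and the score is the caller's peak height, all as deposited by the authors and not tested again. Deposited clonal folds of the window peaks ran from 0.9 to 1.23.

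Input tags were read by dividing tags by the fold: 1 input tag is worth 0.945 scaled tags, and all 7392 peaks above the lowest value lay on whole tags within a relative 0.02 (the peak of over 1000 tags was not held to it). Intervals are exact Poisson or binomial at 95%. Density is peaks over the distance from the first to the last peak of each chromosome. Scripts (Python 3.11.15, numpy 2.4.6, pandas 2.3.3, scipy 1.17.1, matplotlib 3.10.9) were tested on 20 simulated peak sets. All peaks of the window are named, with the 3 nearest protein-coding genes on either side. The members, motifs and lists were chosen with earlier results of these data known. A list of STAT pathway genes was not analysed, since mm9 gene positions were not used here.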

Additional observations from a re-analysis of the deposited data

How the results depend on the processing

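Of 36 alternatives over 7 results, 29 stayed within a set limit. It was 1.5 times for the number of peaks, median gap, median fold and share of windows. For density and the share with a neighbour it was the 95% interval of the reported value. For median tags it was the Poisson 95% interval of a single count of 19.5, which is not an interval of the median. The intervals of the density ratio (4.70 to 21.5) and of the share (15.7 to 84.3%) do not measure the error of these values. They are also wide, so a value could move far and still lie within. With only peaks at or above the list median of tags, a density ratio of 15.6 in place of 10.9 did so. The count of 29 is therefore no measure of how stable the results are. Of the 36, 24 were planned. The other 12, without the strongest peak or with peaks closer than 1 kb counted once, were chosen after seeing the data. Peaks at least 8-fold over input numbered 5 in place of 8, with a median gap of 40.4 kb in place of 12.6. The median gap was 19.1 kb in a window 50 kb wider on each side and 19.95 kb without the strongest peak. Windows with at least 8 peaks were 2.12% on chromosome 11 and 2.63% of those with a peak, in place of 0.784%. The share with a neighbour was 100% at 20 kb in place of 50%, outside its interval. It was 25% at 5 kb, and 28.6% both without the strongest peak and with close peaks counted once, which the interval includes. These changes follow from fewer or more peaks, windows or distance counted. No paired analysis was possible because there is 1 ChIP sample, and for the same reason no replicate could be left out. With a score of 9 needed for a peak, binding that scored lower was not detectable at this depth.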
